A study of Mus musculus with 12 samples.

Results

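The 9 genes described here encode regulators that hold CD8+ T cells in the naive, resting state: Klf2, Klf3, Foxo1, Tob1, Tcf7, Lef1, Satb1, Bach2 and Foxp1. They were taken by gene symbol, and all 9 were found among the 12885 symbols of the expression table. RNA was sequenced from 12 libraries of CD8+ T cells from the spleens of C57Bl/6 mice aged 6 weeks, labelled female. The groups were cells of homozygous Ikaros-Zn4-/- mice (Zn4 below) after 0, 12 and 24 h of stimulation, and cells of wild-type (WT) mice after 0, 12 and 24 h, with 2 libraries in each of the 6 groups. All cells had been enriched by negative selection and sorted as naive CD8+ cells, low or negative in CD44, and the stimulated cells were then kept on plates coated with antibodies to CD3 and CD28. The labels say no more about the allele, and do not say whether the replicates of a group came from separate animals, so that p-values measure the spread between these samples.

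A naive T cell circulates through lymph nodes in a small, non-dividing state that is actively maintained by transcription. FOXO1 sits near the top of this circuit: it turns on Klf2 and the gene for the interleukin-7 receptor, and it is pushed out of the nucleus by AKT once the antigen receptor signals. TCF1 (encoded by Tcf7), LEF1 and SATB1 keep the T cell programme and its chromatin in place, whereas BACH2 and FOXP1 are repressors that restrain effector genes. Ikaros, the zinc-finger protein altered in the mutant mice, binds lymphocyte genes and can repress or activate them.

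On stimulation 7 of the 9 genes fell in cells of both genotypes, and Bach2 and Foxp1 rose, although Foxp1 in Zn4 cells at 24 h was at -0.01 under median-ratio scaling. Zn4 and WT cells at rest did not differ past the threshold in any of the 9, although Foxp1 did in 1 alternative fit. At 12 h Klf2, Lef1, Bach2 and Foxp1 were lower in Zn4 cells than in WT cells. At 24 h Klf2 was higher in Zn4 cells and Foxp1 was again lower. Levels are RPKM, reads scaled to the length of the gene and to the total reads of the library, and changes are differences of log2(RPKM + 1) ± the standard error of a limma model over all 12 libraries. A gene is called changed where its Benjamini-Hochberg adjusted p, over 12726 tested genes, is under 0.05.

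**Figure D1:**
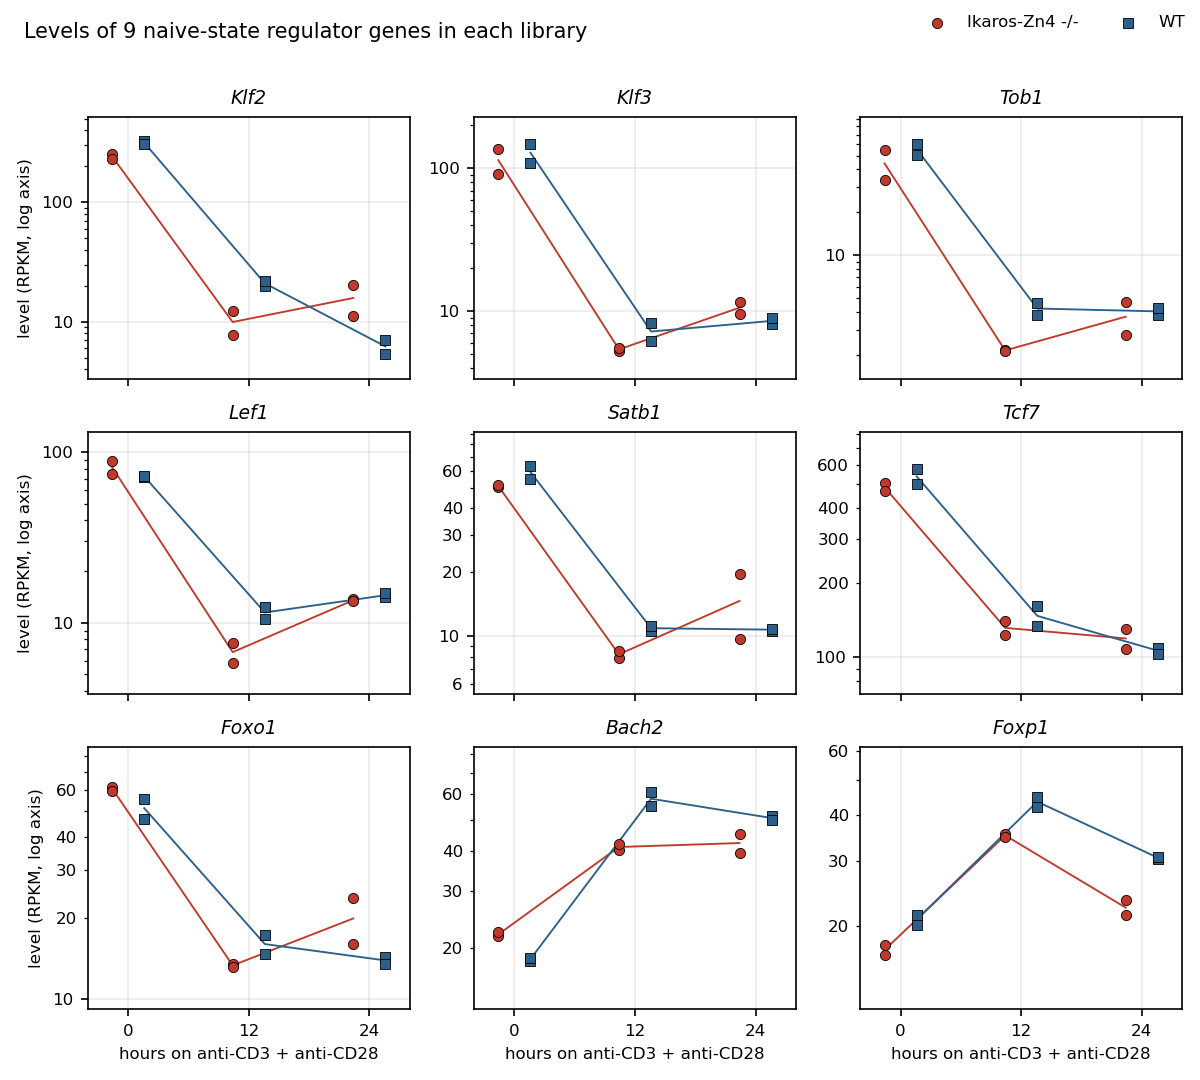
Level of each of the 9 genes in each library (RPKM, log axis) against hours on anti-CD3 and anti-CD28; red circles are Zn4 libraries and blue squares WT libraries, set apart sideways for clarity, and lines join the means of 2 libraries. Klf2, Klf3, Tob1, Lef1, Satb1, Tcf7 and Foxo1 are high at 0 h and low afterwards, Bach2 and Foxp1 are low at 0 h and higher at 12 h, and the genotypes change places for Klf2 between 12 h and 24 h.

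Library totals, recovered from the steps of the RPKM values, were 24263907 to 33389808 reads, and the 9 genes held between 135 and 36979 reads in a library. Transcripts of 4 Y-linked genes, which a female animal lacks, summed to 43.4 and 21.0 RPKM in the Zn4 libraries at 12 h and to 38.9 and 0.00198 RPKM in the WT libraries at 12 h, against at most 0.0209 RPKM in any other library. Xist, the transcript of the inactive X chromosome of female cells, read 0.0258 and 24.3 RPKM in the Zn4 libraries at 12 h. It read 0.0023 and 52.6 RPKM in the WT libraries at 12 h, and at least 27.2 RPKM in every other library. The label female thus does not hold for all cells at 12 h, and in contrasts of 12 h with other times these levels go with the time. The genotypes are not matched in these levels at 12 h either. The second Zn4 library held 21.0 RPKM of Y-linked transcripts there, and the second WT library 0.00198 RPKM. Their part in the 12 h results was not tested beyond the fits given beside those results. Summed CD8 T cell markers were 960 and 995 RPKM in Zn4 cells at 12 h, against 1423 and 1347 RPKM in WT cells. At 24 h they were 880 and 1047 RPKM in Zn4 cells, against 1400 and 1347 RPKM in WT cells. At 0 h the Zn4 sums were 1374 and 1443 RPKM and the WT sums 1299 and 1310 RPKM. These markers did not move together. Cd3g, Cd3d and Cd3e were called lower in Zn4 cells at 12 h and 24 h. Cd247 was called higher (1.08 at 12 h and 1.34 at 24 h), and Cd8a and Themis were called at neither time. Of 8 B cell markers only Cd79b was listed, at no more than 6.62 RPKM, no erythroid marker of 6 was listed, and myeloid markers, of which Itgam and Cd68 were 2 listed of 8, summed to 1.40 to 6.62 RPKM. Cd79b averaged 1.64 RPKM in Zn4 cells and 6.58 RPKM in WT cells at 24 h, and Itgam 1.10 RPKM in Zn4 cells and 0.185 RPKM in WT cells at 0 h. Of 6 natural killer cell markers only Gzma was listed, at 3.92 RPKM in resting Zn4 cells and 0.247 RPKM in resting WT cells (called higher, adjusted p = 0.0119). Of 6 dendritic cell markers only Zbtb46 was listed, at 3.21 RPKM in Zn4 cells and 0.508 RPKM in WT cells at 24 h (called higher, adjusted p = 0.00318). CD4 T cell markers, 2 listed of 4, summed to no more than 2.35 RPKM. Gamma-delta T cell markers summed to 36.1 and 37.9 RPKM in resting Zn4 cells, against 2.84 and 3.46 RPKM in resting WT cells, mostly through Cd163l1. The other tested markers of that list, Tcrg-C1 (-0.02) and Tcrg-C2 (0.12), were not called between Zn4 and WT cells at 0 h. The part of these marker levels in the results was not tested, and in bulk RNA fewer cells of a type and less RNA per cell cannot be told apart.

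The first group of genes acts on quiescence and traffic. Klf2 encodes a zinc-finger activator of S1pr1, the receptor by which T cells leave lymphoid tissue, and is on the mouse genome (GRCm38) at chr8:72319033-72321656, plus strand. Klf2 read 253 and 229 RPKM in Zn4 cells at 0 h, 7.66 and 12.2 RPKM at 12 h, and 20.4 and 11.2 RPKM at 24 h. In WT cells it read 324 and 304 RPKM at 0 h, 19.8 and 22.0 RPKM at 12 h, and 6.98 and 5.41 RPKM at 24 h. Klf2 was thus below WT in both Zn4 libraries at 12 h and above WT in both at 24 h, without overlap. Its mean at 24 h stood at 6.54% of its 0 h level in Zn4 cells and at 1.98% in WT cells.

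The stretch before the Klf2 start is printed because Klf2 is the 1 gene of the 9 called lower in Zn4 cells at one time and higher at another. It runs from chr8:72318812-72319032 (RefSeq start, GRCm38.p6, plus strand) and leaves out annotated exon bases. Capitals mark the AT-rich core of a MEF2 motif, TAAATTTA, which is its own reverse complement, and GC boxes, GGGCGG.
Klf2: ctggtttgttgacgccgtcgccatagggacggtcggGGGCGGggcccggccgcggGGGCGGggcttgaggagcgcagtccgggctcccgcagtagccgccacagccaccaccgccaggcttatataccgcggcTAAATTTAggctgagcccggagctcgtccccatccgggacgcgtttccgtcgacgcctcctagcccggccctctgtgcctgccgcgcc
The MEF2 letters lie 117 bases before the RefSeq start. They occur in 165 of 32851 mouse promoter windows of 250 bases (0.502%), and the GC box, read on both strands, in 32.7% of them. These 2 motifs were added after the sequences had been seen. No Ikaros-family core (TGGGAA), FOXO motif (GTAAACA) or KLF motif (CCACACCC) stands in the Klf2 window on either strand, which says only that those letters are absent there.

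Klf3, a KLF-family repressor that works through CtBP, lies at chr5:64803388-64832901, plus strand. It read 91.0 and 137 RPKM in Zn4 cells at 0 h, 5.26 and 5.52 RPKM at 12 h, and 11.6 and 9.53 RPKM at 24 h. In WT cells Klf3 read 108 and 149 RPKM, 6.18 and 8.22 RPKM, and 8.13 and 8.95 RPKM at the same times. The replicates at 0 h lay far apart in both genotypes and overlapped, while at 12 h both Zn4 values were below both WT values and at 24 h both were above. The length behind the Klf3 values is 2479 bases, against 11243 exon bases in GENCODE M21, so that its level against other genes depends on the transcript chosen; comparisons between samples do not.

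Tob1, a BTG/TOB-family protein that slows proliferation and recruits the CCR4-NOT deadenylase, lies at chr11:94211454-94215495, plus strand. It is not a DNA-binding factor like the others. Tob1 read 33.7 and 54.4 RPKM in Zn4 cells at 0 h, 2.18 and 2.14 RPKM at 12 h, and 4.68 and 2.76 RPKM at 24 h, against 50.3 and 60.7 RPKM, 3.85 and 4.63 RPKM, and 3.82 and 4.29 RPKM in WT cells at those times. It held the last place among the 9 genes in all stimulated groups, and the genotypes overlapped at 0 h and 24 h but not at 12 h. The Tob1 promoter is shown beside that of Klf2 because both genes fell to between 1.98% and 8.45% of their resting mean in the 4 stimulated groups; it covers chr11:94211204-94211453 (RefSeq start, GRCm38.p6, plus strand), with GC boxes in capitals.
Tob1: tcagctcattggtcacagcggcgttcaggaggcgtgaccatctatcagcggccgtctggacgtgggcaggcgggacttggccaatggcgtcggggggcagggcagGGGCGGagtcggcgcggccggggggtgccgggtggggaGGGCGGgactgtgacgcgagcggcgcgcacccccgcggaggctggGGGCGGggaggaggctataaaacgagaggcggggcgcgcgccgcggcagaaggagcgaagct
It holds 3 GC boxes, at 145, 107 and 62 bases before the start, and a GC content of 73.6%, against 71.2% in the Klf2 window. GC boxes stood in 12 of the 19 promoter windows that RefSeq lists for the 9 genes, where 32.7% of all windows hold one. Bach2 was the 1 gene with none. Some windows of Lef1 and of Satb1 overlap each other, and the same Lef1 GC box is counted in both of its overlapping windows. The GC box was searched after the sequences had been seen. The Bach2 window lies inside the annotated gene, so the stretch before the annotated Bach2 start was not searched.

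Foxo1 (chr3:52268336-52353221, plus strand) kept more of its transcript than the KLF genes. It read 61.6 and 59.5 RPKM in Zn4 cells at 0 h, 13.4 and 13.2 RPKM at 12 h, and 23.8 and 16.0 RPKM at 24 h. In WT cells Foxo1 read 46.8 and 55.5 RPKM, 14.7 and 17.3 RPKM, and 14.3 and 13.5 RPKM. Both Zn4 values were thus above both WT values at 0 h and 24 h and below them at 12 h, with a spread at 24 h set by 1 Zn4 library.

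The second group maintains T cell identity. Tcf7, which encodes the HMG-box factor TCF1, lies at chr11:52252371-52283014 on the minus strand and was the most abundant of the 9 in every group. It read 505 and 470 RPKM in Zn4 cells at 0 h, 123 and 140 RPKM at 12 h, and 130 and 108 RPKM at 24 h, against 502 and 576 RPKM, 133 and 161 RPKM, and 109 and 103 RPKM in WT cells. The genotypes overlapped at all 3 times.

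Lef1, the close relative of Tcf7, lies at chr3:131110471-131224356 on the plus strand. Lef1 read 88.4 and 74.8 RPKM in Zn4 cells at 0 h, 5.83 and 7.63 RPKM at 12 h, and 13.8 and 13.4 RPKM at 24 h. In WT cells it read 71.6 and 72.6 RPKM, 10.5 and 12.5 RPKM, and 14.1 and 15.0 RPKM. Zn4 cells were above WT cells at 0 h and below them at both later times, by the widest margin at 12 h, when the Zn4 mean was 8.25% of its resting level and the WT mean 15.9%.

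Satb1, a chromatin organiser of thymocytes and T cells, lies at chr17:51736187-51833290 on the minus strand. Satb1 read 50.4 and 51.5 RPKM in Zn4 cells at 0 h, 7.92 and 8.55 RPKM at 12 h, and 19.6 and 9.75 RPKM at 24 h, against 55.1 and 63.6 RPKM, 10.6 and 11.2 RPKM, and 10.6 and 10.9 RPKM in WT cells. At 24 h the first Zn4 library stood above both WT libraries and the second below them. That first Zn4 library at 24 h had the higher level for 8 of the 9 genes, all but Foxp1.

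The third group rose. Bach2, a bZIP repressor that pairs with small MAF proteins at AP-1-like sites and restrains effector differentiation, lies at chr4:32238804-32586108, plus strand. Bach2 read 21.6 and 22.3 RPKM in Zn4 cells at 0 h, 40.2 and 42.1 RPKM at 12 h, and 45.1 and 39.5 RPKM at 24 h. In WT cells it read 18.2 and 18.6 RPKM, 55.2 and 61.1 RPKM, and 51.4 and 49.8 RPKM. The Zn4 values were above WT at 0 h and below WT at 12 h and 24 h, without overlap at any time.

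Foxp1, a forkhead repressor needed for naive T cell quiescence, lies at chr6:98925338-99522721 on the minus strand. It read 17.8 and 16.7 RPKM in Zn4 cells at 0 h, 35.7 and 34.9 RPKM at 12 h, and 21.4 and 23.5 RPKM at 24 h, against 21.5 and 20.2 RPKM, 45.0 and 42.2 RPKM, and 30.6 and 30.9 RPKM in WT cells. Foxp1 was below WT in both Zn4 libraries at all 3 times. Promoter windows of Bach2 and Foxp1 are shown as those of the 2 genes that rose, and both run 5′ to 3′ on the gene's strand; the Bach2 window is chr4:32417185-32417434 (plus strand) and the Foxp1 window, 1 of several RefSeq starts of that gene, is chr6:99266533-99266765 (minus strand, without annotated exon bases), GRCm38.p6. Both printed windows lie inside the annotated gene and not before its annotated start. Capitals mark an ETS core read on the reverse strand in Bach2 (CGGAAG, in 13.6% of all windows) and a TCF/LEF motif read on the reverse strand in Foxp1 (CTTTGAA, in 4.46% of all windows). The other Foxp1 windows hold GC boxes and no TCF/LEF letters.
Bach2: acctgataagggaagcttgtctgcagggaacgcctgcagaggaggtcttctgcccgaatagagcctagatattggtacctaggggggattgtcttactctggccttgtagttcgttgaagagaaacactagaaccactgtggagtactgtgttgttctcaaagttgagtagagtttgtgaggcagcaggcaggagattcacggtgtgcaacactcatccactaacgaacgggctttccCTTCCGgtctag
Foxp1: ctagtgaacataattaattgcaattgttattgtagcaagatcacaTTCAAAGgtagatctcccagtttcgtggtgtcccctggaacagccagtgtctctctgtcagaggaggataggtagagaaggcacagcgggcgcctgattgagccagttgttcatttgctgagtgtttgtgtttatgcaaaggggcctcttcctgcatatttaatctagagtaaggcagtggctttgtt
Over all 19 windows of the 9 genes, the Ikaros-family core TGGGAA was found in 1, a Satb1 window, where 21.6% of all windows hold it. The FOXO motif (3.17% of all windows) and the AP-1 motif TGACTCA (4.46%) were found in none of the 19, and the KLF motif (3.2%) in 1, of Tcf7.

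The order of levels changed with stimulation. In Zn4 cells at 0 h the means ran Tcf7 487, Klf2 241, Klf3 114, Lef1 81.6, Foxo1 60.6, Satb1 51.0, Tob1 44.1, Bach2 22.0 and Foxp1 17.3 RPKM, and in WT cells at 0 h Foxp1 and Bach2 likewise held the last places. At 12 h and 24 h Tcf7 stayed first, and Bach2 and Foxp1 held the next places in both genotypes. Neighbours whose libraries overlapped at 0 h were Satb1 and Tob1 in both genotypes and Tob1 and Foxo1 in WT cells. At 12 h they were Klf2 and Satb1 in Zn4 cells and Lef1 and Satb1 in WT cells. At 24 h the run Foxp1, Foxo1, Klf2, Satb1 and Lef1 in Zn4 cells overlapped step by step, and Lef1 and Foxo1 overlapped in WT cells.

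Against resting cells, all 9 genes were called at 12 h in Zn4 cells and in WT cells. The background is wide: 73.0% of tested genes were called at 12 h in Zn4 cells (29.6% lower, 43.5% higher) and 70.2% in WT cells (27.0% lower, 43.1% higher), so a share of 9 in 9 is read here beside the size of each change. The median gene moved by 0.19 in Zn4 cells and by 0.20 in WT cells, and median-ratio scaling, which removes that shift, gave 37.0% lower and 35.6% higher in Zn4 cells and 35.6% lower and 34.3% higher in WT cells. Klf2 fell by 4.50 ± 0.26 in Zn4 cells and by 3.85 ± 0.26 in WT cells, Klf3 fell by 4.14 ± 0.21 in Zn4 cells and fell by 3.98 ± 0.21 in WT cells, and Tob1 fell by 3.79 ± 0.24 in Zn4 cells and by 3.43 ± 0.24 in WT cells. Lef1 fell by 3.42 ± 0.13 in Zn4 cells and by 2.55 ± 0.13 in WT cells. Satb1 fell by 2.49 in Zn4 cells and by 2.34 in WT cells, Foxo1 fell by 2.11 in Zn4 cells and by 1.62 in WT cells, and Tcf7 fell by 1.88 in Zn4 cells and by 1.87 in WT cells. Bach2 rose by 0.87 ± 0.09 in Zn4 cells and by 1.61 ± 0.09 in WT cells, and Foxp1 by 0.99 ± 0.08 in Zn4 cells and by 1.03 ± 0.08 in WT cells. The highest adjusted p among these 18 changes was 1.36e-05. No alternative setting and no left-out library ended any of the 12 h calls.

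At 24 h against 0 h all 9 were called again in each genotype, where 74.7% of genes were called in Zn4 cells (26.0% lower, 48.7% higher) and 73.9% in WT cells (25.6% lower, 48.3% higher); the median gene moved by 0.31 in each, and under median-ratio scaling 36.8% of genes were lower and 37.5% higher in Zn4 cells and 36.4% lower and 37.0% higher in WT cells. Klf2 fell by 3.91 ± 0.26 in Zn4 cells and by 5.46 ± 0.26 in WT cells, the deepest fall of the 9 in WT cells. Klf3 fell by 3.29 in Zn4 cells and by 3.75 in WT cells, Tob1 fell by 3.25 in Zn4 cells and by 3.48 in WT cells, and Lef1 fell by 2.50 in Zn4 cells and by 2.24 in WT cells. Tcf7 fell by 2.03 in Zn4 cells and by 2.33 in WT cells, Satb1 fell by 1.80 in Zn4 cells and by 2.36 in WT cells, and Foxo1 fell by 1.58 in Zn4 cells and by 1.81 in WT cells. Relative to the median gene, the Bach2 rise was 0.60 in Zn4 cells and 1.10 in WT cells, and the Foxp1 rise 0.05 in Zn4 cells and 0.23 in WT cells. The 24 h call of Foxp1 rested on the deposited scaling: under median-ratio scaling it was -0.01 (adjusted p = 0.88) in Zn4 cells and 0.15 (adjusted p = 0.126) in WT cells, by limma. The calls of the other 8 genes at 24 h held in all 24 alternatives.

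**Figure D2:**
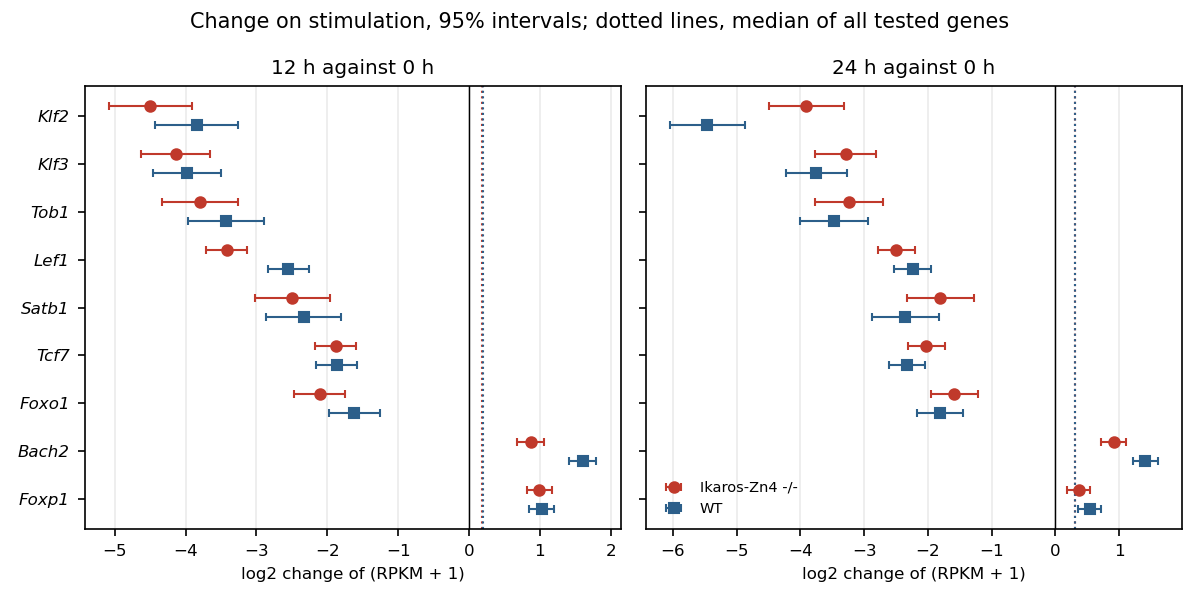
Change of log2(RPKM + 1) at 12 h and at 24 h against 0 h for the 9 genes, with 95% intervals of the limma model; red circles are Zn4 cells, blue squares WT cells, and dotted lines the median of all tested genes (0.19 and 0.20 at 12 h, 0.31 at 24 h). Lef1 at 12 h lies further left in Zn4 cells, Klf2 at 24 h lies further left in WT cells, and Bach2 lies further right in WT cells at both times.

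Between 12 h and 24 h, 4 of the 5 genes called in Zn4 cells rose, and the 3 genes called in WT cells fell. Foxp1, which fell in both genotypes, was the 1 gene called in both. The genes that rose in Zn4 cells were not called in WT cells (Lef1 0.32, Klf3 0.23, Satb1 -0.02 and Foxo1 -0.19). In Zn4 cells 5 of the 9 genes were called, where 33.6% of tested genes were (22.6% higher, 11.0% lower): Lef1 rose by 0.92 ± 0.13 (adjusted p = 0.000614), Klf3 by 0.85 ± 0.21 (0.0139), Satb1 by 0.69 ± 0.23 (0.0476) and Foxo1 by 0.52 ± 0.16 (0.0334), while Foxp1 fell by 0.63 ± 0.08 (0.000331), all limma with adjusted p. In WT cells 3 were called, where 24.0% of tested genes were (17.0% higher, 6.94% lower), and all fell: Klf2 by 1.61 ± 0.26 (adjusted p = 0.00209), Foxp1 by 0.49 ± 0.08 (0.002) and Tcf7 by 0.46 ± 0.13 (0.0286). The Zn4 call of Satb1 was lost in 17 of 24 alternatives and that of Foxo1 in 10. Among these was the fit without the first Zn4 library at 24 h, where the rises were 0.22 and 0.25. With the Y-linked level as a covariate none of the 4 rises was called by limma (Lef1 0.67, adjusted p = 0.0867, and Klf3 0.51, adjusted p = 0.466). Leaving out either Zn4 library at 12 h moved the Klf3 adjusted p to 0.0776 (replicate 1) or 0.0527 (replicate 2), and the Tcf7 fall in WT cells was 0.32 (adjusted p = 0.179) without WT replicate 2 at 12 h.

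Zn4 and WT cells at 0 h gave no call among the 9 genes with limma at an adjusted p under 0.05, where 5.72% of tested genes were called (3.76% higher, 1.96% lower). limma-voom on the recovered reads also called none, and 2 of the 9, Foxp1 and Bach2, had an unadjusted p under 0.05. A limma fit with a replicate block within each time point, a pairing the labels do not give, called Foxp1 lower (adjusted p = 0.0459). Foxp1 was lower in Zn4 cells by 0.26 ± 0.08 (log2 change -0.26, adjusted p = 0.1) and Bach2 higher by 0.24 ± 0.09 (adjusted p = 0.156). The libraries did not overlap for 6 of the 9 genes, 3 higher and 3 lower in Zn4 cells, where 39.8% of all genes did not overlap (19.0% higher, 20.8% lower). The 95% interval of the difference ran from -0.96 to 0.20 for Klf2, from -0.12 to 0.46 for Lef1 and from -0.43 to 0.15 for Tcf7.

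At 12 h all 9 genes were lower in Zn4 cells and the libraries did not overlap for 8 of them, the exception being Tcf7; 33.5% of all genes lay lower without overlap, 29.7% higher, and 63.2% in either direction. Of the 9, 4 were called lower, where 8.28% of tested genes were called lower and 13.1% in either direction. Klf2 was lower by 1.03 ± 0.26 on the log2 scale (log2 change -1.03, adjusted p = 0.0291), Lef1 changed by -0.70 ± 0.13 (0.00666), Bach2 by -0.49 ± 0.09 (0.00509) and Foxp1 by -0.30 ± 0.08 (0.0366), limma with adjusted p. Tob1, at -0.73 ± 0.24, had an adjusted p of 0.079, and Klf3 (-0.35), Satb1 (-0.37), Foxo1 (-0.24) and Tcf7 (-0.16) were not called. Leaving out the first Zn4 library at 12 h gave -0.53 (adjusted p = 0.0598) for Lef1, -0.46 (0.0532) for Bach2, -0.73 (0.221) for Klf2 and -0.31 (0.15) for Foxp1, and leaving out the second WT library, the 1 of the 4 at 12 h without Y-linked transcripts, gave -0.59 (0.0679), -0.42 (0.0571), -0.96 (0.163) and -0.34 (0.105). With the summed Y-linked level as a covariate Klf2 was -0.93 (adjusted p = 0.14) and Foxp1 -0.34 (0.0817). Lef1 and Bach2 kept their calls in that fit. The first libraries of each genotype at 12 h both held Y-linked transcripts, and a fit with them alone at 12 h kept fewer of the 4 calls. In those libraries Bach2 read 40.2 RPKM in Zn4 cells and 55.2 RPKM in WT cells, and Lef1 5.83 RPKM and 10.5 RPKM. Klf2 read 7.66 RPKM in Zn4 cells and 19.8 RPKM in WT cells there, and Foxp1 35.7 RPKM and 45.0 RPKM.

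At 24 h 2 of the 9 genes were called, where 19.4% of tested genes were (9.40% higher, 9.96% lower). Klf2 was higher in Zn4 cells by 1.17 ± 0.26 (adjusted p = 0.0123), and Foxp1 changed by -0.43 ± 0.08 (adjusted p = 0.00467), by limma. Libraries did not overlap for 6 of the 9, 3 in each direction, against 68.7% of all genes (32.4% higher, 36.3% lower). Foxo1 was 0.47 ± 0.16 higher (adjusted p = 0.0755), Bach2 changed by -0.26 ± 0.09 (0.0653), and Satb1 (0.34), Klf3 (0.27), Tcf7 (0.16), Lef1 (-0.09) and Tob1 (-0.13) were further from the threshold. The Klf2 call was lost without the first Zn4 library (0.77, adjusted p = 0.0848) and without the second WT library (1.01, 0.0974) at 24 h, whereas the Foxp1 call held in all 24 alternatives. Without the second Zn4 library at 24 h, Foxo1 (0.73, adjusted p = 0.00576) and Satb1 (0.81, 0.00143) were called as well.

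**Figure D3:**
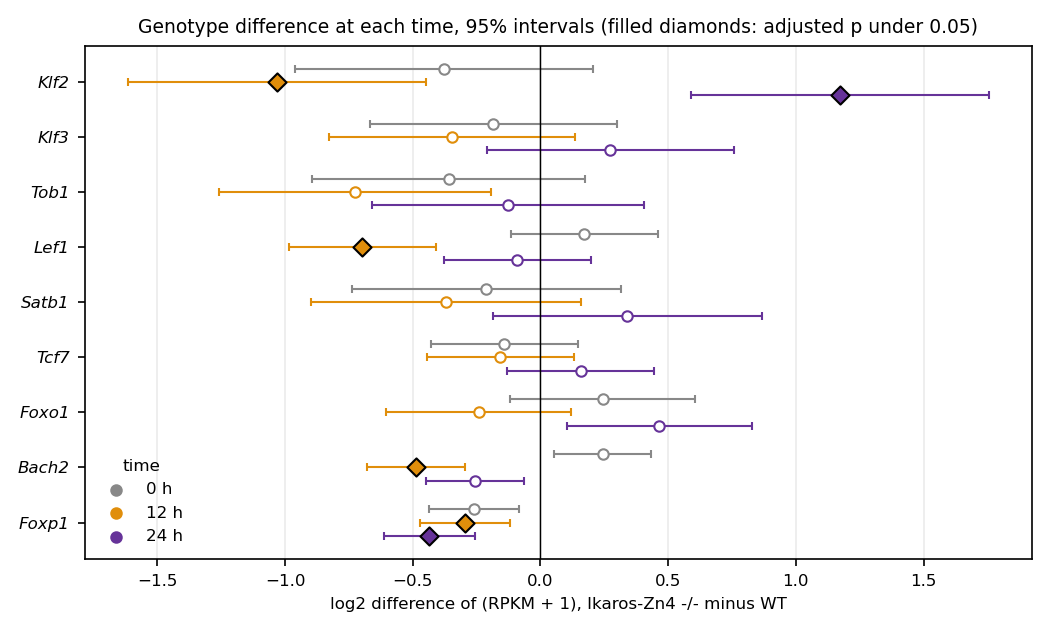
Zn4 minus WT difference of log2(RPKM + 1) at each time for the 9 genes, with 95% intervals of the limma model over 12 libraries; filled diamonds have an adjusted p under 0.05 and open circles do not. All 9 differences lie left of 0 at 12 h, and Klf2 lies left of 0 at 12 h (-1.03) and right of it at 24 h (1.17).

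Whether the response itself differed between genotypes was tested as an interaction, the Zn4 change minus the WT change, in the same limma model; all of these contrasts share libraries with the comparisons above. For 12 h against 0 h, 2 of the 9 genes were called, where 5.12% of tested genes were (1.54% positive, 3.58% negative). Lef1 fell further in Zn4 cells (interaction -0.87 ± 0.18, adjusted p = 0.0274) and Bach2 rose less (-0.73 ± 0.12, adjusted p = 0.00995). For 24 h against 0 h, 2 of 9 were called, where 8.24% of genes were (3.88% positive, 4.35% negative): Klf2 fell less in Zn4 cells (1.55 ± 0.37, adjusted p = 0.0327) and Bach2 again rose less (-0.50 ± 0.12, adjusted p = 0.0349). Between 12 h and 24 h the interaction was positive for 8 of the 9 genes, all but Foxp1, with a median of 0.61 against 0.00 over all tested genes, and Klf2 was the 1 call (2.21 ± 0.37, adjusted p = 0.0389), where 0.786% of genes were called (0.652% positive, 0.134% negative). Leaving out single libraries ended each of these calls in at least 2 cases; the Bach2 difference at 12 h, lost without the first Zn4 (-0.70, adjusted p = 0.0553) or second WT library (-0.66, 0.0526), was lost in the fewest.

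The genes around the 9 were read from lists of relatives, partners and targets, some genes being in 2 lists. Among 17 tested relatives of the same families, 13 fell and 2 rose in Zn4 cells at 12 h, and 12 fell and 2 rose in WT cells; over all tested genes 29.6% fell and 43.5% rose in Zn4 cells, and 27.0% fell and 43.1% rose in WT cells. Between genotypes none of the 17 was called lower in Zn4 cells at any time, while 3 were called higher at 0 h, 2 at 12 h and 5 at 24 h. Of all tested genes 1.96%, 8.28% and 9.96% were called lower at those times, and 3.76%, 4.85% and 9.40% higher. The medians of the 17 were 0.16, 0.28 and 0.51, beside -0.02, -0.01 and -0.02 over all genes. Klf6, an early-response KLF factor, averaged 101 RPKM in Zn4 cells at 24 h, against 17.9 RPKM in WT cells (2.33 ± 0.29, adjusted p = 0.00068), and Klf4, an inhibitor of proliferation in CD8+ T cells, 5.52 RPKM in Zn4 cells and 0.625 RPKM in WT cells (1.81 ± 0.41, 0.0132). Klf9 was higher in Zn4 cells at 0 h, at 12.9 RPKM against 3.21 RPKM in WT cells (1.79 ± 0.29, adjusted p = 0.00645), as was Klf4, at 16.1 RPKM against 4.64 RPKM in WT cells (1.64 ± 0.41, 0.049). At 12 h the 2 called relatives were Klf9 (1.01 ± 0.29, 0.0493) and Klf13 (0.39 ± 0.11, 0.0468).

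**Figure D4:**
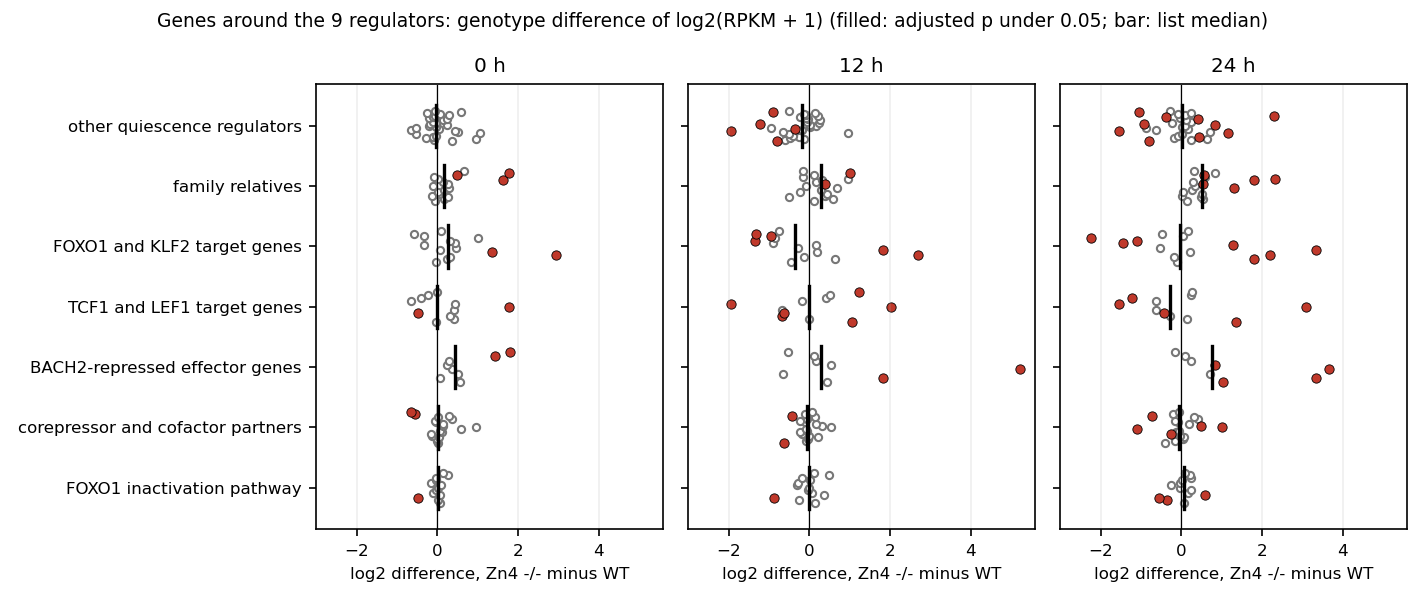
Zn4 minus WT difference of log2(RPKM + 1) at 0, 12 and 24 h for the tested genes of 7 lists around the 9 regulators, 1 point per gene; filled points have an adjusted p under 0.05 and black bars are list medians. The family relatives lie at or right of 0 at 24 h with a median of 0.51, and the target lists of FOXO1 and KLF2 and of TCF1 and LEF1 spread to both sides.

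Of 14 genes known as targets of FOXO1 and KLF2, 3 were called lower and 2 higher in Zn4 cells at 12 h, and 3 lower and 4 higher at 24 h; of all tested genes 8.28% were lower and 4.85% higher at 12 h, and 9.96% lower and 9.40% higher at 24 h. S1pr1 and S1pr4, sphingosine-phosphate receptors, and Itgb7, an integrin chain, were the 3 lower at 12 h: S1pr1 averaged 3.62 RPKM in Zn4 cells and 8.0 RPKM in WT cells (-0.96 ± 0.17, adjusted p = 0.0056), S1pr4 changed by -1.32 ± 0.16 (0.000945) and Itgb7 by -1.34 ± 0.26 (0.00877). The 2 higher at 12 h were Cxcr3, a chemokine receptor of effector T cells, and Gzmb, granzyme B, with wider differences of 2.68 ± 0.24 (adjusted p = 0.000172) and 1.82 ± 0.36 (0.00985). Cxcr3 was higher in Zn4 cells at all 3 times, averaging 12.7, 37.0 and 16.4 RPKM in Zn4 cells at 0, 12 and 24 h, against 0.773, 5.14 and 2.79 RPKM in WT cells. Its difference at 0 h, 2.93 ± 0.24 (adjusted p = 0.00012), was the widest of the list in resting cells, where Dusp6 was the other call (1.35 ± 0.32, 0.0417). At 24 h, when Klf2 was higher, S1pr1 was 3.05 RPKM in Zn4 cells and 2.97 RPKM in WT cells and was not called. Ccr7, the lymph node homing receptor, averaged 871 RPKM in Zn4 cells at 24 h, against 222 RPKM in WT cells (1.80 ± 0.36, 0.00795), and Il7r, the interleukin-7 receptor chain, 8.12 RPKM in Zn4 cells and 2.76 RPKM in WT cells (1.28 ± 0.27, 0.0104). The widest positive differences of the list between Zn4 and WT cells at 24 h were those of Gzmb (3.35 ± 0.36, adjusted p = 0.000328) and Cxcr3 (2.19 ± 0.24, 0.000354), and the widest negative ones those of Plac8 (-2.23 ± 0.51, 0.0151) and Itgae (-1.45 ± 0.29, 0.00793). The list median was 0.27 at 0 h, -0.37 at 12 h and -0.04 at 24 h.

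Among 11 tested TCF1 and LEF1 targets, Eomes and Cd5 were called at all 3 times, in opposite directions. Eomes, a T-box factor of effector and memory CD8+ T cells, averaged 15.0, 40.5 and 36.2 RPKM in Zn4 cells at 0, 12 and 24 h, against 3.62, 9.11 and 3.09 RPKM in WT cells, a difference of 1.77 ± 0.36, 2.03 ± 0.36 and 3.10 ± 0.36. Cd5, a brake on antigen receptor signals, changed by -0.48 ± 0.09, -0.64 ± 0.09 and -0.43 ± 0.09 at those times on the log2 scale. Id3, an inhibitor of E proteins, averaged 11.1 and 19.6 RPKM in Zn4 cells at 12 h and 24 h, against 45.7 and 55.8 RPKM in WT cells (-1.95 ± 0.41 and -1.54 ± 0.41, adjusted p = 0.0139 and 0.0293). In all, 1 gene of the list was called higher and 1 lower at 0 h, 3 and 3 at 12 h, and 2 and 3 at 24 h. Over all tested genes the shares were 3.76% higher and 1.96% lower at 0 h, 4.85% and 8.28% at 12 h, and 9.40% and 9.96% at 24 h.

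Of 8 tested genes that BACH2 is known to repress, 2 were called higher in Zn4 cells at 0 h, 2 at 12 h and 4 at 24 h, and none lower. Of all tested genes 3.76%, 4.85% and 9.40% were called higher at those times, and 1.96%, 8.28% and 9.96% lower. Ifng, which encodes interferon gamma, averaged 472 RPKM in Zn4 cells at 12 h, against 11.5 RPKM in WT cells (5.22 ± 0.20, adjusted p = 1.13e-06), and 251 RPKM in Zn4 cells at 24 h, against 18.6 RPKM in WT cells (3.67 ± 0.20). Gzmb, granzyme B, averaged 206 RPKM in Zn4 cells at 12 h, against 61.9 RPKM in WT cells, and 1198 RPKM in Zn4 cells at 24 h, against 111 RPKM in WT cells. At 0 h, when Bach2 itself was not called, the 2 genes were Tbx21 (5.21 RPKM in Zn4 cells, 0.681 RPKM in WT cells; 1.81 ± 0.37, adjusted p = 0.0194) and Prdm1 (3.70 RPKM in Zn4 cells, 0.748 RPKM in WT cells; 1.43 ± 0.20, 0.00302), the genes for T-bet and BLIMP1. The list medians were 0.44, 0.30 and 0.77 at 0, 12 and 24 h. At 12 h Tbx21 (-0.54) and Id2 (-0.66) lay lower in Zn4 cells without a call. In the interaction for 12 h against 0 h, Ifng was called positive (4.85). Prdm1 (-1.31) and Tbx21 (-2.34) were called negative there, where 1.54% of tested genes were positive and 3.58% negative. For 24 h against 0 h, Ifng (3.30) and Gzmb (3.28) were called positive and Prdm1 (-1.33) negative. In WT cells at 12 h against 0 h, where Bach2 itself rose, Il2ra (6.11), Gzmb (4.72), Ifng (3.50) and Tbx21 (2.89) were called higher. Nfkbiz (-0.68), Prdm1 (-0.75) and Fosl2 (-2.03) were called lower there, as they were in Zn4 cells. Of all tested genes 43.1% rose and 27.0% fell in that WT comparison. The part of Bach2 in these levels was not tested.

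Other regulators of quiescence gave 29 tested genes. None was called at 0 h, 5 were lower in Zn4 cells at 12 h, and 5 were lower and 5 higher at 24 h, with medians of -0.04, -0.18 and 0.03. Of all tested genes 8.28% were lower at 12 h, and 9.96% lower and 9.40% higher at 24 h. Slfn1, a Schlafen gene of resting T cells, averaged 9.82 RPKM in Zn4 cells at 12 h, against 24.3 RPKM in WT cells (-1.23 ± 0.14, adjusted p = 0.000553). Tsc22d3, which encodes the glucocorticoid-induced protein GILZ, averaged 12.7 RPKM in Zn4 cells at 24 h, against 1.58 RPKM in WT cells (2.29 ± 0.33, 0.00155). Gata3, a T lineage factor, was higher at 24 h by 1.16 ± 0.30 (0.0253), and Zfp36l1, an RNA-binding protein that destabilises transcripts, changed by -1.04 ± 0.23 (0.0134).

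The last lists were 19 tested corepressors and cofactors and 13 genes of FOXO1 inactivation. Of the first, 2 were lower in Zn4 cells at 0 h and 2 at 12 h with none higher, and 3 were lower and 2 higher at 24 h, where 1.96% of all genes were lower at 0 h, 8.28% at 12 h and 9.96% at 24 h, and 9.40% were higher at 24 h. Wwp1, a ubiquitin ligase, was lower at 0 h (-0.65 ± 0.11, adjusted p = 0.00708); Tle4, a Groucho corepressor used by TCF1, was lower at 0 h (-0.55 ± 0.10, adjusted p = 0.0095) and Hdac7, a class II deacetylase, was lower at 24 h (-1.09 ± 0.18, 0.00305). Of the second, Inpp5d, which encodes the phosphatase SHIP1 that opposes AKT, was lower at all 3 times (-0.47 ± 0.11, -0.88 ± 0.11 and -0.56 ± 0.11), as the 1 call at 0 h and at 12 h. At 24 h Akt2 was lower as well (-0.34 ± 0.08, 0.0199) and Mdm2 was higher (0.60 ± 0.17, 0.037). Of all tested genes, 5.72% were called in either direction at 0 h, 13.1% at 12 h and 19.4% at 24 h.

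The genes whose profile over the 12 libraries lay nearest to each of the 9 were found as those with the smallest root mean square difference of log2(RPKM + 1), each centred on its own mean. Tcf7 had the closest match, Rictor, a subunit of mTORC2, at 0.0823 log2 units. Near to Lef1 were Kremen1 (0.159) and Sun2 (0.179), and nearest to Foxo1 Pced1b (0.141), Irf9 (0.15) and Zfp949 (0.161). Klf2 had no near match: Il7r came closest at 0.458, followed by Crebrf (0.464) and Tcp11l2 (0.466). Klf3 lay nearest to Chd2 (0.194), Satb1 to Kif1b (0.204) and Tob1 to Klhl24 (0.234), and Ccng2 stood among the 3 nearest of both Klf3 and Tob1. Of the rising genes, Foxp1 lay nearest to Swsap1 (0.110), Comtd1 (0.112) and Fyn (0.121), and Bach2 to Sirt6 (0.137), Gm15784 (0.142) and Map4k1 (0.147). Within the 9, the nearest pair was Klf3 and Tob1 (0.265), ahead of Tcf7 and Foxo1 (0.277), while Bach2 and Foxp1, though both rose, were 0.351 apart.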

How the data were processed

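RNA was measured in 12 libraries, 2 per genotype and time. Per the submitters' processing notes, reads were aligned with TopHat2 2.0.12 and counted with HTSeq 0.6.1 on mm10 (GRCm38); the libraries were stranded, and the strand setting of the counting is not given in the sources used here, so that reads of antisense genes at Lef1, Klf3, Foxo1, Bach2 and Satb1 may be included. The deposited values are the authors' RPKM, for 12885 symbols whose highest group mean is at least 1.0005 RPKM; whole reads could be recovered from them for 99.992% of genes (tolerance 0.02 reads).

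With limma 3.58.1 in R 4.3.3, log2(RPKM + 1) was modelled by a mean per group with a trended empirical Bayes variance, over the 12726 genes that reached 1 RPKM in 2 or more libraries, leaving 6 residual degrees of freedom. The pseudocount of 1 understates changes of low genes. Adjusted p is Benjamini-Hochberg over these genes, separately in each of 12 comparisons. The fit was run on simulated data with the same replicate noise in every group, which checks the code and not how it performs on these data. All 9 genes passed the filter. The genes and lists were chosen with earlier results of these data known, and list counts carry no test. Named are the 9 genes, the 3 nearest profiles of each (not all printed), and from each list the called genes with the largest changes and those called at all 3 times. Alternatives were a pseudocount of 0.1, no filter or a filter at 5 RPKM, median-ratio and quantile scaling, robust empirical Bayes, only the libraries compared, 2 replicate blocks, a Y-linked covariate, limma-voom on recovered reads and leaving out each library; a fit with the replicate 1 libraries alone at 12 h was chosen after seeing the data. RefSeq promoters (GRCm38.p6) were searched on both strands in the 250 bases before each start.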

Additional observations from a re-analysis of the deposited data

Results flagged for a closer look

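Of the 9 regulators, 3 had a response to stimulation that differed between the genotypes in a direct test (the Zn4 change minus the WT change on the log2 scale, limma, Benjamini-Hochberg adjusted p). Lef1 differed at 12 h against 0 h by -0.87 ± 0.18 (adjusted p = 0.0274). Bach2 differed by -0.73 ± 0.12 at 12 h against 0 h (adjusted p = 0.00995) and by -0.50 ± 0.12 at 24 h against 0 h (adjusted p = 0.0349). Klf2 differed by 1.55 ± 0.37 at 24 h against 0 h (adjusted p = 0.0327) and by 2.21 ± 0.37 at 24 h against 12 h (adjusted p = 0.0389). These contrasts share libraries, and over the 24 alternatives the calls were lost in 10 for Lef1, in 3 and 11 for Bach2 and in 11 and 17 for Klf2, without a change of direction.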

How the results depend on the processing

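Over 108 changes of the 9 genes and 24 alternatives, 2424 values kept their direction and side of the threshold, 114 lost a call, 22 gained one and 32 turned sign; the cause of a changed call was not tested. All 36 calls against 0 h held in every setting except Foxp1 at 24 h under median-ratio and quantile scaling, which in Zn4 cells turned to -0.0144 and -0.0307. The limit throughout is 2 libraries per group.

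With Zn4 set against WT, the count of the 9 genes called over the left-out libraries was 0 throughout at 0 h, and ranged from 0 to 5 at 12 h and from 1 to 4 at 24 h, and the count of all genes from 437 to 815, 743 to 1834 and 1061 to 2778. Between 24 h and 12 h it ranged from 2 to 7 of the 9 in Zn4 cells (all genes 2424 to 4656), and in WT cells from 2 to 3 (all genes 1347 to 3391). For the genotype difference of the response it ranged from 0 to 2 at 12 h (all genes 236 to 789), 0 to 2 at 24 h (325 to 1524) and 0 to 3 between 12 h and 24 h (1 to 450).

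The Y-linked covariate gave 2 of the 9 and 892 genes in Zn4 against WT at 12 h, 1 and 847 in Zn4 cells between 12 h and 24 h, 1511 genes in WT cells, and for the genotype difference of the response 1 and 318 at 12 h, then 0 and 7 for 24 h against 12 h. The replicate 1 libraries alone at 12 h gave 457 genes at 0 h, 1 of the 9 and 461 genes at 12 h, 2 and 2699 in Zn4 cells between 12 h and 24 h, 1730 genes in WT cells, and for the difference of the response 0 and 136 at 12 h, 0 and 537 at 24 h, and 0 and 0 between them. Only the libraries compared gave 112 genes at 0 h, 1 of the 9 at 24 h, 5094 genes in WT cells and 3 of the 9 in Zn4 cells between 12 h and 24 h, and for the difference of the response 1 at 12 h, 0 and 550 at 24 h, and 0 and 10 between them. Median-ratio and quantile scaling gave 3 of the 9 each in Zn4 cells between 12 h and 24 h. For the difference of the response between 12 h and 24 h, a pseudocount of 0.1 gave 0 and 0, quantile scaling 0 and 50, and limma-voom 43 genes.

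The labels give no pairing by replicate number. Deviations of same-numbered Zn4 and WT libraries correlated at 0.61, 0.192 and 0.0429 at 0, 12 and 24 h. A replicate block within each time point gave 1 of the 9 (Foxp1) and 1343 genes at 0 h, 5 and 2644 genes at 12 h, 4 and 3794 genes at 24 h, and 1319, 2029 and 216 genes for the difference of the response at 12 h, at 24 h and between them. A replicate block shared by all groups gave 0 of the 9 and 49 genes for the last of these.

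Values that turned sign were small, and none was called. Without single libraries, Zn4 minus WT ranged from -0.479 to 0.110 for Klf3 at 0 h, from -0.129 to 0.810 for Satb1 at 24 h and from -0.423 to 0.170 for Tob1 at 24 h. The change at 24 h against 12 h ranged from -0.0543 to 0.0130 for WT Satb1, from -0.159 to 0.0574 for WT Tob1 and from -0.0557 to 0.130 for Zn4 Bach2; with the replicate 1 libraries alone at 12 h, WT Satb1 was 0.0130 and WT Tob1 0.0574. Zn4 Bach2 was -0.0737 there with median-ratio scaling, -0.00739 with quantile scaling and -0.103 with the Y-linked covariate. The Tcf7 difference of the response at 12 h was 0.0107, 0.00435 and 0.112 in those settings and 0.0284 with the replicate 1 libraries alone. Without single libraries it ranged from -0.150 to 0.121, that of Klf3 from -0.458 to 0.131 and that of Foxp1 from -0.0804 to 0.00804. At 24 h that difference ranged from -0.105 to 0.571 for Tob1 and from -0.0484 to 0.491 for Foxo1.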
